A study of Mus musculus with 2 samples.

Results

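Clock output genes carry the time signal of the circadian clock from its core loop to the rest of the cell. The 9 genes described here were chosen by symbol: the PAR bZIP factors Dbp, Tef and Hlf, the D-box repressor Nfil3, the E-box repressors Ciart, Bhlhe40 and Bhlhe41, the deubiquitinase gene Usp2 and the cell cycle kinase gene Wee1. All 9 were found among the 24054 genes of the deposited expression table. They were measured in liver RNA of male C57BL/6 mice aged 8 to 12 weeks, either wild type (WT) or lacking Pgrmc1 (KO, Pgrmc1 -/Y). The KO mice lack exons 1 and 2 of the X-linked gene in the whole body, from a floxed allele made in C57BL/6N and crossed to Sox2-Cre, a driver that is active in the early embryo. From each of 5 mice per genotype, 2.5 μg of RNA went into a pool before library preparation, so that each genotype is 1 library and the spread between mice was not measured. Every difference below therefore compares 2 libraries, has no replicate check and carries no p-value. The purpose of the RNA-seq was to see whether loss of Pgrmc1 lowers P450 transcripts.

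In the core loop, the activators Clock and Arntl bind E-box elements and switch on their own repressors, the Per and Cry genes, and the Rev-erb genes Nr1d1 and Nr1d2. The same E-boxes drive output genes such as Dbp and Ciart. The proteins of Dbp, Tef and Hlf activate genes with a D-box, and the protein of Nfil3 represses through the same element. In liver this branch reaches genes of drug metabolism, bile acid synthesis and heme synthesis, and transcripts of Dbp and Nfil3 are known to peak at nearly opposite times of day. The hour at which the livers for RNA-seq were taken is not given in the sources used here, so an effect of hour and an effect of genotype cannot be told apart.

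The level of Pgrmc1 followed the labels, at 0.68 and 949.49 TPM in the KO and WT pools (TPM is a share of the transcript pool, corrected for gene length). About 22086692 reads in KO and 29710419 in WT were estimated on genes, from the value of 1 read in the authors' means. Levels are in TPM, and changes are log2((KO TPM + 1)/(WT TPM + 1)), in which the added 1 TPM shrinks the changes of low genes. Calls are made past 1.4-fold on that scale, over genes averaging 1 TPM or more, and lower or higher with no fold named describes only the pair of values. The 95% intervals come from the reads behind each value. They cover counting error only, and reads without molecular identifiers are not independent molecules. Over the 11623 genes averaging 1 TPM or more, the median log2 change was -0.01, and the 5th and 95th percentiles were -0.27 and 0.27.

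Sequences before the start sites are shown for 3 genes: Ciart, one of the 2 genes lower past 1.4-fold, Tef, the most abundant D-box activator, and Nfil3, the gene that was higher in KO. Each line gives the 250 bases before a RefSeq start site on GRCm38.p6, the assembly of mm10, written 5′ to 3′ along the gene. Capitals mark matches on either strand to the E-box (CACGTG), its variant CACGTT, the D-box (TTANNTAA, inner bases left free) or the ROR element (TAGGTCA). None of these matches overlaps another in the lines shown.
Ciart (chr3:95882229-95882478, minus strand): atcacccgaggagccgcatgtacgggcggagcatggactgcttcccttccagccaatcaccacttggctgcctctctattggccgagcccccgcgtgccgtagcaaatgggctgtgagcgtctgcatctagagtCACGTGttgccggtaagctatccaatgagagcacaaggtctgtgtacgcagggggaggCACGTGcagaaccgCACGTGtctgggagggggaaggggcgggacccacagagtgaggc
Tef, upstream start (chr15:81802423-81802672, plus strand): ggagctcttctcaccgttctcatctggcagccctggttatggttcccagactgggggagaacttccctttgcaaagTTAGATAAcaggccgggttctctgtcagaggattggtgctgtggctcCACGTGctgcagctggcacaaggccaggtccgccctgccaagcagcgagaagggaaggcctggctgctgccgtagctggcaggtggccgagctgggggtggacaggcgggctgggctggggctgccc
Nfil3 (chr13:52981040-52981289, minus strand): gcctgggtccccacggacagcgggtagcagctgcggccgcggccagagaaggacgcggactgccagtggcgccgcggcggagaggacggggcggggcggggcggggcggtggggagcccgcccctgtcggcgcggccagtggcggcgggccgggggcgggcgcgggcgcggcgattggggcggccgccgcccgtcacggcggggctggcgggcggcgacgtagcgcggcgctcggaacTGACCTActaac
The search covered windows of 300 bases, which also hold the first 50 bases from the start on, and all 3 E-boxes of Ciart lie before it, at -116, -58 and -44. The pair nearest the start is separated by 8 bases. Of 32851 RefSeq windows of this length, 7.15% held an E-box and 0.0883% held 3 or more. Tef had an E-box at -127 and a D-box match at -174 before its upstream start and another E-box at -138 before its second start. The Nfil3 window held a ROR element, read on the opposite strand, at -12, and 2.61% of all windows held these letters. RORA activates through this element and the Rev-erb proteins repress. Bhlhe41 had an E-box at -153, and the D-box letters were found in 6% and CACGTT in 4.68% of all windows. Windows were given for 7 of the 9 genes, and those of Dbp, Hlf and Usp2 held none of the letters searched. The Usp2 window belongs to a start site at 44084920, inside the gene, which begins at 44067021. That of Nfil3 belongs to a start site at 52981039, inside a minus-strand gene whose upstream end is at 52982878. The start sites of Dbp (45705247) and Ciart (95882228) also lie inside the gene, though nearer to its upstream end (45705100 and 95882257). Sites outside the windows were not searched. A match describes the window and is not a bound site.

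Bhlhe40 and Tef were the most abundant of the 9 genes in both libraries, and Bhlhe41 was the least. Bhlhe40 was at 51.99 TPM in the WT pool against 41.76 in KO, and Tef at 44.79 and 34.99 TPM. Dbp and Nfil3 had like levels in WT, at 25.92 TPM (95% interval 24.1 to 27.9) and 25.65 TPM (24.0 to 27.4). In KO they stood apart, with Nfil3 at 30.1 TPM (28.0 to 32.3) above Dbp at 20.05 TPM (18.2 to 22.0). Hlf, Ciart and Usp2 followed in WT at 10.19, 8.68 and 8.22 TPM, and the interval of each overlapped that of its neighbour in this order. In KO they were at 9.6, 5.51 and 5.23 TPM, and only Ciart and Usp2 overlapped. Wee1 was at 2.68 TPM in the WT pool against 1.7 in KO. The 9 genes summed to 178.61 TPM in the WT pool against 149.36 in KO.

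**Figure D1:**
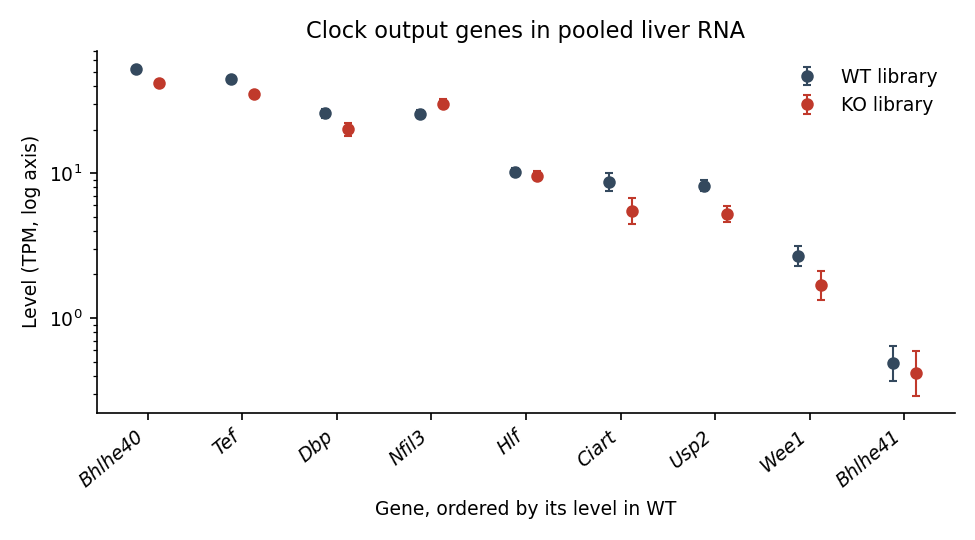
Level of each clock output gene in TPM on a log axis in the WT library and the KO library, with 95% counting intervals from the reads behind each point and no replicates. The KO point lies below the WT point for 8 of the 9 genes and above it for Nfil3, which goes from 25.65 to 30.1 TPM.

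Of the 9 genes, 8 had a lower TPM in KO than in WT and 1, Nfil3, a higher one, while 53.8% of all genes averaging 1 TPM or more had a change below 0. For 2 of the 8, Hlf and Bhlhe41, the counting interval held 0. Ciart and Usp2, 2 of the 8 genes averaging 1 TPM or more, were lower past 1.4-fold, and this held for 1.02% of all genes with such a mean. None of the 8 was higher past 1.4-fold, as were 1.21% of all genes. Past 1.2-fold, 6 of the 8 were lower (Dbp, Tef, Ciart, Bhlhe40, Usp2 and Wee1), against 5.51% of all genes, and none was higher, against 5.39%. At a fold of at most 0.6 on this scale, none of them was called, against 0.301% of genes. Ciart and Usp2 are among the 4 that average 1 to 10 TPM, a range in which 1.39% of all genes were lower past 1.4-fold. The median change of the 9 genes was -0.35. The counting interval of the ratio of the authors' means lay below 0 for those 6 of 8 genes and for 13.4% of genes. It lay above 0 for Nfil3 and for 11.7% of genes.

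**Figure D2:**
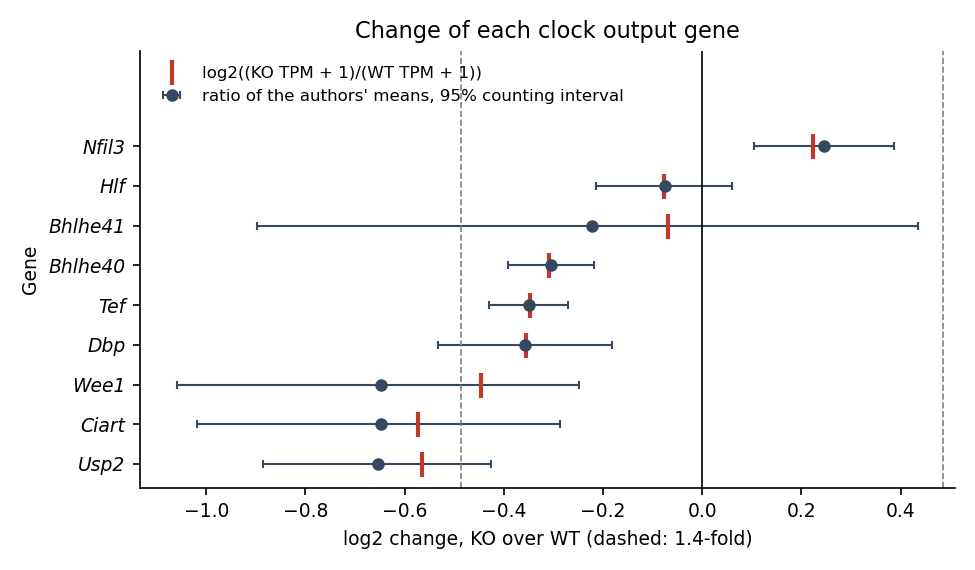
Change of each clock output gene on the log2 scale, KO over WT. Points are ratios of the authors' library means with 95% counting intervals, red ticks are changes of TPM with 1 TPM added, and dashed lines mark 1.4-fold. The intervals of Hlf and Bhlhe41 cross 0, that of Nfil3 lies above 0 and the other 6 lie below 0.

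Among the PAR bZIP activators, Dbp and Tef had lower values in KO, to nearly the same extent and short of 1.4-fold, while Hlf differed little between the libraries. Dbp (Entrez gene 13170, chromosome 7, 45705100 to 45710203 of GRCm38, plus strand) is the classic output of the liver clock. It was at 20.05 and 25.92 TPM in the KO and WT pools, 22.6% lower, with a log2 change of -0.35. On 425 and 735 reads, its ratio of means had an interval of -0.53 to -0.18 on the log2 scale. Of the 11623 genes, 299 had a lower change. Dbp overlaps Sphk2 on the opposite strand, which was at 21.71 and 19.2 TPM in the KO and WT pools. The kit keeps strand, and RSEM was run with its strand option, but the value of that option is not given in the sources used here, so reads of both genes may not be fully separated.

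Tef (Entrez gene 21685, chromosome 15, 81802673 to 81826863, plus strand) encodes thyrotroph embryonic factor, the second activator of the D-box. It was at 34.99 and 44.79 TPM in the KO and WT pools, 21.9% lower, with a log2 change of -0.35. About 1985 and 3417 reads gave it the narrowest interval of the 9, from -0.43 to -0.27. Hlf (Entrez gene 217082, chromosome 11, 90336535 to 90390917, minus strand) encodes hepatic leukemia factor, the remaining activator. Its level was 9.6 and 10.19 TPM in the KO and WT pools, a log2 change of -0.08 with an interval of -0.21 to 0.06. In the log2 ratio of the authors' means, the change of Hlf lay 0.27 above that of Tef (interval of the difference 0.12 to 0.43) and 0.28 above that of Dbp (0.06 to 0.50). On the same measure, Tef and Dbp differed by 0.01 (-0.18 to 0.20). These differences are taken within the libraries and do not depend on the scaling between them.

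Nfil3 (Entrez gene 18030, chromosome 13, 52967209 to 52982878, minus strand) encodes the bZIP repressor also called E4BP4, which competes with the PAR bZIP proteins for the D-box. It was at 30.1 and 25.65 TPM in the KO and WT pools, a log2 change of 0.22, and 862 of the 11623 genes had a higher change. On 772 and 880 reads, the ratio of means was 1.18 (1.07 to 1.31), under 1.2-fold with an interval that reaches past it. In the ratio of the authors' means, its log2 change lay 0.60 above that of Dbp (0.38 to 0.82), 0.59 above that of Tef (0.43 to 0.76) and 0.32 above that of Hlf (0.13 to 0.51). Nfil3 was thus the gene with the opposite sign in this set, by a small amount.

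The summed transcripts of the activators, set against that of the repressor, were lower in KO. Dbp, Tef and Hlf summed to 64.64 and 80.9 TPM in the KO and WT pools. Divided by Nfil3, the sum was 2.15 in KO and 3.15 in WT, a ratio of 0.681 (95% counting interval 0.611 to 0.759). The single ratios moved from 1.01 to 0.666 for Dbp, from 1.75 to 1.16 for Tef and from 0.397 to 0.319 for Hlf. These ratios restate the values above and are no further result. Each activator had a lower TPM in KO and Nfil3 a higher one, so every ratio had to be lower. Hlf itself changed by -0.08, with an interval that held 0. Tef made up most of the activator transcripts in both libraries, at 54.1% in KO and 55.4% in WT, and Hlf went from 12.6% in WT to 14.9% in KO.

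**Figure D3:**
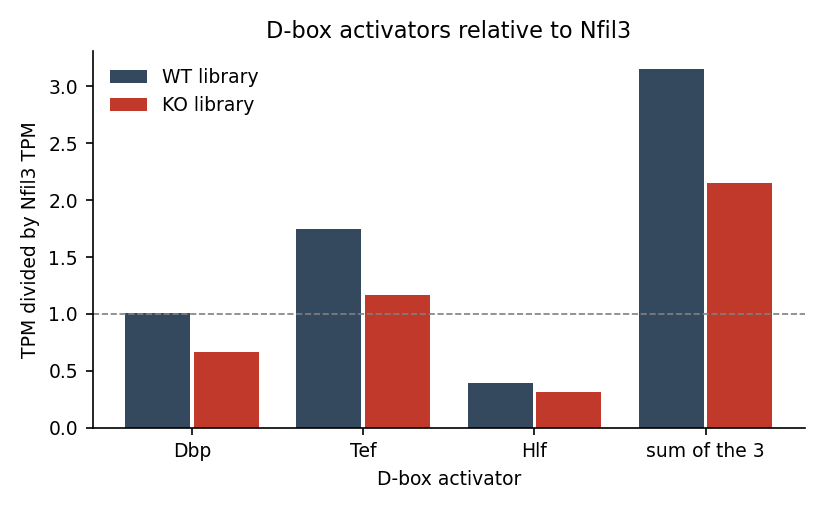
TPM of Dbp, Tef, Hlf and their sum divided by the TPM of Nfil3 in the WT library and the KO library, without replicates. The dashed line marks a ratio of 1. All 4 ratios are lower in KO, and that of Dbp goes from 1.01 to 0.666. This follows from the lower TPM of each activator and the higher TPM of Nfil3.

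Of the E-box repressors, Ciart was lower in KO past 1.4-fold, Bhlhe40 had a lower value short of that bound, and Bhlhe41 was too low to tell. Ciart (Entrez gene 229599, chromosome 3, 95878500 to 95882257, minus strand), also called Chrono, encodes a repressor that acts on the Clock and Arntl complex. It was at 5.51 and 8.68 TPM in the KO and WT pools, 36.5% lower, with a log2 change of -0.57, and 68 of the 11623 genes had a lower change. It rests on 94 and 199 reads, with an interval of -1.02 to -0.29. In the reference transcripts, 96 of its 2428 windows of 100 bases were also found in Gm9176, while the other 8 genes shared none with another gene. Gm9176 had no value under that name in the deposited data. Bhlhe40 (Entrez gene 20893, chromosome 6, 108660629 to 108666925, plus strand), also called Dec1, encodes a basic helix-loop-helix repressor that binds E-boxes. It was at 41.76 and 51.99 TPM in the KO and WT pools, a log2 change of -0.31. On 1732 and 2888 reads its interval was -0.39 to -0.22. In the ratio of the authors' means, the log2 change of Bhlhe40 was smaller than that of Ciart by 0.34, with an interval of the difference of -0.02 to 0.71 that holds 0. Bhlhe41 (Entrez gene 79362, chromosome 6, 145858243 to 145865420, minus strand), or Dec2, is its close relative. Its level was 0.42 and 0.49 TPM in the KO and WT pools on 33 and 52 reads, and its interval of -0.90 to 0.43 leaves its direction undetectable at this depth.

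Usp2 and Wee1 are outputs whose proteins act outside transcription. Usp2 (Entrez gene 53376, chromosome 9, 44067021 to 44095627, plus strand) encodes a deubiquitinase with strongly rhythmic transcripts in many tissues. It was at 5.23 and 8.22 TPM in the KO and WT pools, 36.4% lower, with a log2 change of -0.57. About 231 and 491 reads gave an interval of -0.89 to -0.43, and 71 of the 11623 genes had a lower change. Wee1 (Entrez gene 22390, chromosome 7, 110122059 to 110143299, plus strand) encodes the kinase that holds CDK1 inactive before mitosis. It was at 1.7 and 2.68 TPM in the KO and WT pools, 36.6% lower, on about 77 and 163 reads. Its log2 change was -0.45 with 1 TPM added and -0.63 with 0.1 TPM added. In TPM, this low gene passed 1.4-fold with the smaller addition only, under which 1.92% of all genes were lower past it. With the authors' means and 1 unit added, Wee1 also passed 1.4-fold, and 2.05% of all genes were lower past it. The interval of Wee1 was -1.06 to -0.25. Genes on the opposite strand also overlap other members of the set. That of Wee1, 1600010M07Rik, was at 0.96 and 0.49 TPM in the KO and WT pools. Those of Ciart (C920021L13Rik, 0.05 and 0.03 TPM) and Bhlhe40 (0610040F04Rik, 0.21 and 0.24 TPM) were nearly silent. Those of Tef, Bhlhe41 and Usp2 had no value under their names in the deposited data.

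The 6 lower genes differed in size. The ratios of the authors' means were 0.635 for Usp2, 0.638 for Ciart and 0.639 for Wee1, and 0.781 for Dbp, 0.785 for Tef and 0.81 for Bhlhe40. Counting error separates these only in part. Of the 15 pairs among the 6 genes, 3 had an interval of the difference that excluded 0, and they were Usp2 against Dbp, Tef and Bhlhe40. Over all 36 pairs of the 9 genes, at 95% each and without adjustment, 16 excluded 0. Nfil3 was apart in 7 of its 8 pairs, all but that with Bhlhe41.

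**Figure D4:**
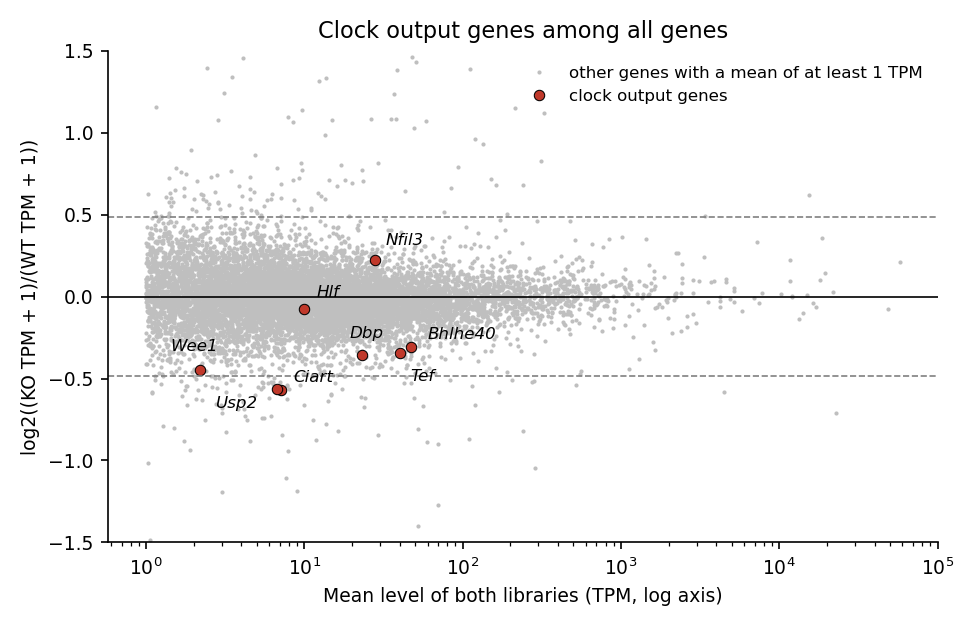
log2 change of TPM, with 1 TPM added, against the mean level of both libraries on a log axis for the genes averaging 1 TPM or more. Clock output genes are red, dashed lines mark 1.4-fold, and 26 genes lie outside the range shown. Ciart and Usp2 lie below the lower dashed line, Nfil3 lies above 0, and Bhlhe41 is too low to be plotted.

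The core loop, a list of 12 genes, was compared in the same libraries. Of the 7 repressors, 6 were lower in KO, with a median change of -0.26, and none passed 1.4-fold. The Rev-erb genes were among the lowest, Nr1d1 at -0.40 (23.84 TPM in KO, 31.87 in WT) and Nr1d2 at -0.37 (31.74 and 41.2 TPM). Per3 changed by -0.39, Cry2 by -0.26, Per1 by -0.16 and Per2 by -0.07, and the interval of Per2 held 0. Cry1, which peaks later than the other repressors, was the 1 repressor that was higher, at 0.20. Of the 4 activators averaging 1 TPM or more, 3 were higher, with a median of 0.27, and 2 passed 1.4-fold. These were Arntl, at 16.42 and 10.53 TPM in the KO and WT pools (0.60), and Npas2, at 1.52 and 0.76 TPM (0.52). Clock changed by 0.03 with an interval that held 0, and Rora by -0.23. Rorb was listed at 0.02 TPM in both libraries. Dbp, Tef, Ciart, Bhlhe40, Usp2 and Wee1 thus had the sign of the Rev-erb genes and of Rora, and Nfil3 that of Arntl and Cry1. Of all genes averaging 1 TPM or more, 53.8% were below 0 and 45.8% above. A shared sign between 2 libraries therefore does not link genes.

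**Figure D5:**
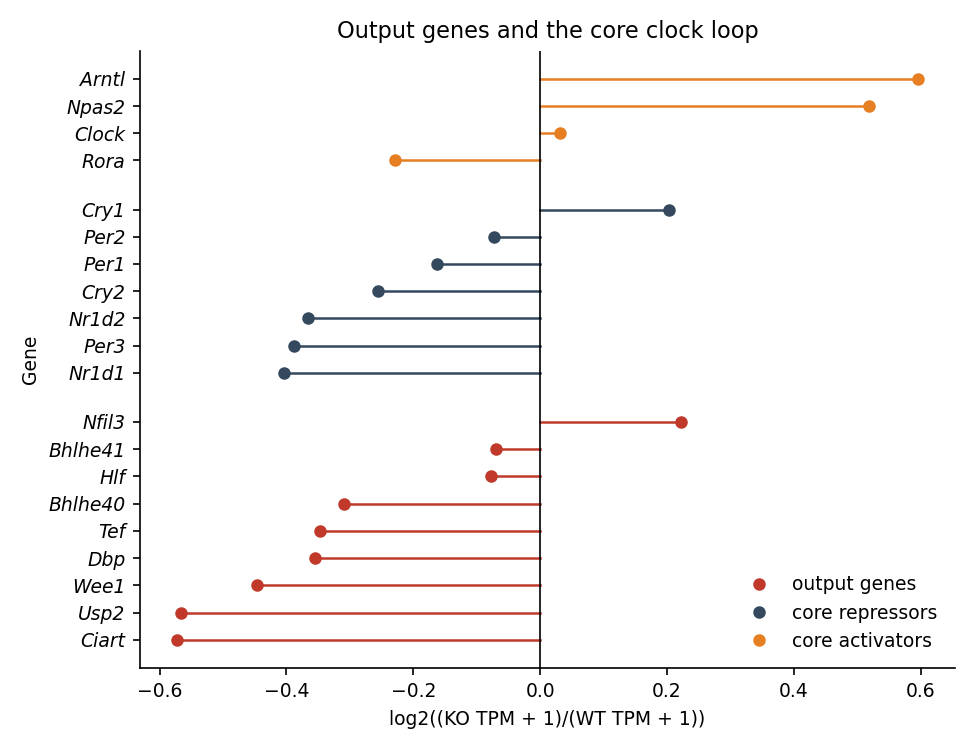
log2 change of TPM, with 1 TPM added, for the 9 clock output genes (red), the 7 core repressors (dark blue) and the 4 core activators averaging 1 TPM or more (orange). Among the output genes only Nfil3 lies above 0, as do Cry1 among the repressors and 3 of the 4 activators.

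Genes known to be driven by PAR bZIP proteins in liver went both ways. Of 9 such genes, 2 were lower and 2 higher past 1.4-fold, and the median was 0.01. Cyp7a1, the rate-limiting enzyme of bile acid synthesis, was highest at 1.03, and Cyp2a4, which can share reads with its close copy Cyp2a5, was lowest at -5.88. Cyp2a5, at -0.58, was the other gene lower past 1.4-fold, so both lower calls come from this pair. Por, the reductase of microsomal P450 enzymes, changed by 0.01, and Alas1, the first enzyme of heme synthesis, by -0.04. Of 8 other rhythmic liver genes, 6 were lower and 2 passed 1.4-fold, with a median of -0.16, from -0.82 for Klf10 to 0.27 for Avpr1a. Of 8 clock kinase and ubiquitin ligase genes averaging 1 TPM or more, none passed 1.4-fold, and the changes ran from -0.17 for Csnk1e to 0.02 for Prkaa1. None of these lists was chosen without knowledge of earlier results of these data.

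Genes of the nutritional and hormonal state also differed between the pools. Of 9 lipogenic genes induced by feeding, 9 were lower in KO and 3 passed 1.4-fold, with a median of -0.33, from -1.05 for Thrsp to -0.03 for Srebf1. Of 10 genes induced by fasting, 4 were higher and 1 was lower past 1.4-fold, with a median of 0.07, from -0.73 for Fgf21 to 1.32 for Irs2. Of 10 glucocorticoid-responsive genes, 4 were higher and 1 was lower past 1.4-fold, with a median of -0.17, from -0.53 for Fkbp5 to 1.38 for Mt2. Their part in the values of the clock output genes was not tested.

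Fewer cells of a type and less RNA per cell cannot be told apart in bulk RNA. Hepatocyte markers were abundant in both libraries, with Alb at 47241.8 and 49729.1 TPM in the KO and WT pools, and the 7 found in the table summed to 74919 and 78356 TPM. Their median change was -0.08, from -0.47 for Ass1 to -0.0037 for Apoa1. All 10 Kupffer cell markers found were higher in KO, from 0.10 for Vsig4 to 0.44 for Folr2 (median 0.17, sums 401.84 and 351.68 TPM). Stellate cell markers had a median of -0.12 (2 of 8 higher, sums 264.75 and 289.23 TPM, from -0.26 for Des to 0.17 for Lrat). Sinusoidal endothelial markers had a median of -0.10 (0 of 8 higher, sums 192.81 and 213.25 TPM, from -0.60 for Lyve1 to -0.04 for Stab2). Cholangiocyte markers summed to 62.04 and 66.96 TPM in the KO and WT pools, with 1 of 4 higher, from -0.59 for Epcam to 0.01 for Krt19. T and NK cell markers summed to 2.57 and 3.26 TPM with 0 of 6 at a mean of 1 TPM, and B cell markers to 2.4 and 1.83 TPM, with Cd79b at 0.42. Neutrophil markers summed to 6.98 and 6.44 TPM, with S100a8 at 0.01 and S100a9 at 0.36. None of the markers found was at 0 in both libraries, and the part of these cells in the values of the clock output genes was not tested.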

How the data were processed

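Liver RNA of 1 KO and 1 WT library, each pooled from 5 mice, was sequenced as paired reads of 100 bases. Per the labels and the study's methods, the authors used CASAVA 1.8.2 and RSEM 1.2.09 with Bowtie against mm10. They deposited posterior mean TPM for 24054 genes, with column sums of 1005325 in KO and 994702 in WT. They also deposited, for 16318 genes, an EBSeq table with each library's mean signal (estimated reads divided by a size factor). Its posterior probability score and fold ratio are the authors' own comparison and were not used. The mean columns carry no sample name and were read as KO and WT from the headings of the same table in the study's supplement.

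The most frequent mean, 1.16 in KO and 0.86 in WT, was taken as 1 read. Within 0.02, 79.3% of KO and 75.8% of WT values above 0 were whole reads, so no count test was run. Reads were whole for 5 of the 9 genes and rounded for the other 4 (Tef, Hlf, Usp2 and Wee1), a choice made after the values were seen, as were the intervals of differences and ratios. Intervals are Clopper-Pearson for ratios of 2 values, Poisson for levels and Wald for differences and summed ratios.

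The 9 genes and all lists were chosen with earlier results of these data known. Named are the 9 genes, the core clock genes, Pgrmc1 and the highest and lowest gene of each list. Por, Alas1, Cyp2a5, Alb, S100a8, overlapping genes and Gm9176 were added after their values were seen. From the clock lists, 2 genes were left out afterwards, for a reason other than their values, and are not reported here. Alternatives were another pseudocount, scaling, fold and minimum level, and the authors' means. Promoters are from RefSeq on GRCm38.p6, overlaps and shared windows from GENCODE on the same assembly. The computations were tested on simulated data and used Python 3.11.15, matplotlib 3.10.9, scipy 1.17.1, pandas 2.3.3 and numpy 2.4.6.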

Additional observations from a re-analysis of the deposited data

How the results depend on the processing

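No paired analysis was possible because nothing but 1 pooled library stands for a genotype. The number of the 9 genes lower past 1.4-fold was 2, or 3 with 0.1 TPM added and with the authors' means, Wee1 being the third. It was 6 past 1.2-fold, 0 past 2-fold, 0 with a fold of at most 0.6 and 0 with a minimum mean of 10 TPM, a minimum that leaves 4 of the genes. None was higher past 1.4-fold under any of these settings. All 36 recomputed changes of single genes kept their sign and moved by no more than the half-width of their counting interval. An amount added to both values cannot alter a sign, and the other settings use the same reads. This is therefore no independent check of the changes. The median of the 9 genes ran from -0.36 to -0.33, and the ratio of activators to Nfil3 was 0.69 with the authors' means. With 0.1 TPM added, the medians of the core clock repressors and activators were -0.27 and 0.33.

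Over all genes, 118 were lower and 141 higher past 1.4-fold. These counts were 223 and 280 with 0.1 TPM added, 237 and 296 with the authors' means, 640 and 627 past 1.2-fold, 13 and 45 past 2-fold, and 43 and 62 with a minimum of 10 TPM. With a fold of at most 0.6, 35 were lower. Depth limits Bhlhe41, Wee1 and Ciart, while pooling limits what can be said of all 9 genes.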

Other observations

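Relatives and partners of the clock output genes were looked at in the same libraries. Of 6 other bZIP genes of the C/EBP branch, 2 were lower and 0 higher past 1.4-fold, with a median log2 change of -0.06. Ddit3, a stress-induced factor, was lowest at -0.84, and Cebpb, an activator of acute phase genes, was highest at 0.12. Of 6 other helix-loop-helix genes, of the Hes and Id families, averaging 1 TPM or more, 4 were below 0 and 1 was higher past 1.4-fold. The Hey genes listed averaged under 1 TPM. Id1 was lowest at -0.40 and Id4 highest at 0.63, where Id4 is a low gene at 1.95 and 0.9 TPM in the KO and WT pools.

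Of 7 genes of the G2/M step on which Wee1 acts averaging 1 TPM or more, 0 passed 1.4-fold. Pkmyt1, the other kinase that inhibits CDK1, was lowest at -0.48, and Ccnb2 was highest at 0.21. Of 24 other genes of ubiquitin-specific proteases, 1 was lower past 1.4-fold, Usp18, an interferon-induced gene, at -0.52, and Usp21 was highest at 0.21. Their median of -0.07 compares with -0.57 for Usp2, and with 1 library per genotype this gap has no replicate check.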
